A study of Homo sapiens with 4 samples.

Results

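GATA2 peaks centred on protein-coding sequence were described in K562 cells, an established chronic myeloid leukaemia line that expresses endogenous GATA2. A peak was taken as a coding-exon peak when its midpoint lay in an annotated coding segment (CDS, GENCODE release 44 on hg38) and more than 1 kb from the transcription start site (TSS) of every protein-coding transcript. This rule found 288 of the 31777 peaks of asynchronous cells and 16 of the 1648 peaks of mitotic cells. The asynchronous cells were an unsorted culture. The mitotic cells were arrested with nocodazole, sorted for MPM-2, a mitotic phosphoprotein epitope, and pooled over several sorts, with a small remainder of asynchronous cells per the labels. Cells of both conditions were fixed with disuccinimidyl glutarate and formaldehyde, and GATA2 was precipitated with the same antibody. There was 1 GATA2 library per condition, so differences between conditions have no replicate check, and intervals cover counting error over peaks only. The peak lists hold positions without height or read counts, so sequencing depth is unknown and a site missing from the mitotic list may be unoccupied or below detection. Peak width is used as the only stand-in for peak strength, and a loose one. Bookmarked means that a peak overlapped the opposite list by 1 base or more.

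GATA2 is a zinc finger transcription factor of blood stem and progenitor cells that binds the DNA letters GATA, mostly at enhancers and promoters far from or just before coding sequence. Mitotic bookmarking is the retention of a factor at some of its sites while chromosomes are condensed and transcription is largely silent. In a coding exon, the bases of such a site also have to spell a protein. GATA matches were counted on either strand, without overlap, as 4 strings of 6 letters. These were AGATAA, its variant ending in G (written AGATAG), and the same pair with a leading T (TGATAA, with TGATAG). A match on the gene's own strand is called sense here.

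Of the 8 shared mitotic coding-exon peaks with a GATA match on coding bases, 7 are shown first. They were chosen because they carry both a GATA string and codons. Each is given as the mitotic peak or, where that peak is longer, its central 300 bases. Capitals mark GATA matches on the hg38 reference, and bases outside the coding segment are intronic. EPB41 encodes protein 4.1 of the red cell membrane skeleton, ANKRD28 a regulatory subunit of protein phosphatase 6, AGBL2 a carboxypeptidase of the tubulin-modifying family, ABCB11 the bile salt export pump and USP20 a deubiquitinase. KCTD7, which encodes a potassium channel tetramerisation domain protein, is not shown, because its mitotic peak reaches into untranslated bases. CRYBG1 encodes a protein with crystallin domains and ZSWIM5 a protein with a SWIM zinc finger.
EPB41, chr1:29033031-29033230, plus strand: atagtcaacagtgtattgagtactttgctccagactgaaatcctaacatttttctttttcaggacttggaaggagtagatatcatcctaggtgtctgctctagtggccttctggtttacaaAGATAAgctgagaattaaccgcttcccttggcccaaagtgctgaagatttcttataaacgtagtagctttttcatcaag
CRYBG1, chr6:106520904-106521113, plus strand: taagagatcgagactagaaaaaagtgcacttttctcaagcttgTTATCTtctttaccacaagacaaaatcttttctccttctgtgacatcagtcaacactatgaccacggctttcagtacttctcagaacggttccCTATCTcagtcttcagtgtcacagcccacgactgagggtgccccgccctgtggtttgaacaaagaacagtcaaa
AGBL2, chr11:47705792-47706030, plus strand: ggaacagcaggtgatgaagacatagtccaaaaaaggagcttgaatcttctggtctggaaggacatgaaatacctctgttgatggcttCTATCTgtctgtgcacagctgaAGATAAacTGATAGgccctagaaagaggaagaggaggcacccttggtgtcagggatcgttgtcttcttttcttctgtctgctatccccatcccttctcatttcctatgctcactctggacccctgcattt
ANKRD28, chr3:15685917-15686216, plus strand: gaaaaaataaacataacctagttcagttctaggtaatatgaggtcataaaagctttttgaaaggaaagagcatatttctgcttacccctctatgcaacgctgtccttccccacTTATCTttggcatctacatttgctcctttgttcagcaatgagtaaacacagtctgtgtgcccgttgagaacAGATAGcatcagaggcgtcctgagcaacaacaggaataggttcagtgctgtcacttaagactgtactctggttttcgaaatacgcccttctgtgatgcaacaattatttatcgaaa
ABCB11, chr2:168936132-168936431, plus strand: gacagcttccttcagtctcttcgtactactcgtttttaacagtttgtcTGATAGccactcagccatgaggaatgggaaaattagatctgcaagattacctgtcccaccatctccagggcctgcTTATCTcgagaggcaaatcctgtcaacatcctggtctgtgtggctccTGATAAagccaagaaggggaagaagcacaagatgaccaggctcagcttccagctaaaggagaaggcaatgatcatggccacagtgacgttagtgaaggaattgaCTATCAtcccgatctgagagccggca
USP20, chr9:129863141-129863414, plus strand: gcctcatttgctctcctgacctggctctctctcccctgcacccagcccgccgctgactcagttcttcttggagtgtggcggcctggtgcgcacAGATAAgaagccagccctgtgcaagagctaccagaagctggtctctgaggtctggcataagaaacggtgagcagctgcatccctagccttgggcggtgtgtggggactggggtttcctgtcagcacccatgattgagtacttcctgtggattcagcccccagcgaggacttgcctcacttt
ZSWIM5, chr1:45038896-45039195, plus strand: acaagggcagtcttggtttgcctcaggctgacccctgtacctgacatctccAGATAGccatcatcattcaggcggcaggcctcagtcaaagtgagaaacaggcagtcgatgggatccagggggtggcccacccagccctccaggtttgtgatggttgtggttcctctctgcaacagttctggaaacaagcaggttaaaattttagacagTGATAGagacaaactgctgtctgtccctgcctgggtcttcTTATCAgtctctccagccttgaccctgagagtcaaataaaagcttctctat

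In EPB41 the match AGATAA at chr1:29033152-29033157 lay in coding segment 8 of 19 (exon 9 of 21), which runs from 29033093 to 29033245. In CRYBG1 both matches lay in exon 4 of 22, a long coding segment of 2323 bp, so that the mitotic and the asynchronous peak held coding bases only. In AGBL2 the 3 matches of the mitotic peak were packed into a coding segment of 54 bp, exon 5 of 19, although 22.6% of the bases of that peak were coding. In ANKRD28 both matches lay in exon 20 of 28. ABCB11 carried 3 coding matches in its exon 22 of 28, with 4 of the 5 matches of its mitotic peak inside the stretch shown, USP20 1 in exon 9 of 26, and ZSWIM5 1 coding match in exon 8 of 14 beside intronic ones.

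GATA2 peaks fell on coding exons about as often as the length of coding sequence would give. Coding segments more than 1 kb from a TSS made up 0.995% of the hg38 sequence outside gaps, or 29.2 Mb. Of the asynchronous list they held 0.906% (95% exact binomial interval 0.805% to 1.02%), and of the mitotic list 0.971% (0.556% to 1.57%), ratios of 0.911 and 0.976. Introns at the same distance held 46.5% of the asynchronous peaks in 39.0% of the sequence, a ratio of 1.19. Untranslated exons, the parts of messenger RNA outside the reading frame, held 1.57% in 1.34%, a ratio of 1.17. The interval for coding exons reached above equality, while the intervals for introns (45.9% to 47.0%) and untranslated exons (1.44% to 1.72%) lay above their share of the sequence.

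The 288 asynchronous members lay in 282 host genes on 23 chromosomes, with 39 on chromosome 1 and 23 on chromosome 6. No gene held 3 or more. The genes with 2 were PDIK1L, ANK3, CEP152, DOP1A, CRYBG1 and ZNF169. ANK3 encodes ankyrin-G, and both of its peaks, of 526 and 353 bp, lay in the same giant coding exon of 7812 bp. CEP152 encodes a centrosome protein, and its peaks lay in exons 18 and 6 of 27. In CRYBG1 the peaks of 477 and 473 bp shared exon 4, and the latter was bookmarked. The host gene had at least 1 further asynchronous peak elsewhere in 205 of the 282 genes, with a median of 2 peaks per gene and up to 21. A mitotic peak lay somewhere in 53 of the 282 genes. The same counts over all genes are not given here, so these numbers describe the hosts and are not read as an excess. The nearest TSS belonged to the host gene for 225 members, or 78.1% (95% exact binomial interval 72.9% to 82.8%). For the other members it belonged to another gene, as in ZSWIM5, where the nearest TSS was that of UROD, an enzyme of heme synthesis.

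Most peaks straddled an exon and its flanking introns. The coding segment under the midpoint had a median length of 171 bp (quartiles 111 and 334.5 bp), whereas peak width had a median of 356 bp, with quartiles at 256.75 and 470.75 bp. Coding bases made up a median of 51.5% of a peak, with a lowest share of 3.15%. Wholly coding were 52 peaks, or 18.1% (95% exact binomial interval 13.8% to 23.0%), while 48 held less than 25% of coding bases. The midpoint was a median of 44 bp from the nearer end of its coding segment. By position in the transcript, 206 members lay in internal coding segments, 60 in the last, 11 in the first and 11 in genes with a single coding segment. These shares followed the length of eligible coding sequence. Internal segments held 71.5% of members (65.9% to 76.7%) and 74.4% of the sequence, and last segments 20.8% (16.3% to 26.0%) and 17.1%. Segments longer than 1000 bp held 16.0% (11.9% to 20.7%) and 16.9%. Each of these 3 differences lay within the counting error.

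**Figure D1:**
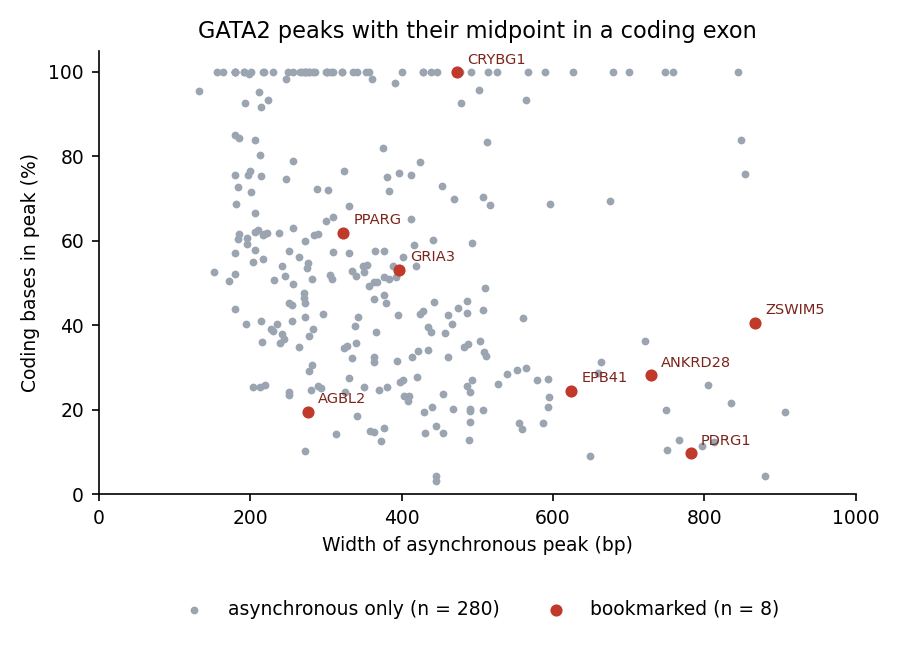
Width of each of the 288 asynchronous coding-exon peaks (x axis, bp) against the share of its bases that are coding (y axis, %), with the 8 bookmarked peaks in red and named. Bookmarked peaks ran from 276 bp (AGBL2) to 867 bp (ZSWIM5) and from 9.72% coding (PDRG1) to 100% (CRYBG1).

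The share of coding-exon peaks with a GATA string did not differ from that of intronic peaks beyond counting error. At least 1 match was found in 267 members, or 92.7% (95% exact binomial interval 89.1% to 95.4%), against 93.0% of all asynchronous peaks and 94.0% of intronic peaks. The difference from intronic peaks was -1.29 percentage points (95% Newcombe interval -4.90 to 1.22). Matches were fewer per peak, with at least 2 in 59.4% of members and 68.3% of intronic peaks, a difference of -8.88 points (-14.7 to -3.32). Of untranslated-exon peaks 65.6% had at least 2, and that difference, -6.23 points (-13.3 to 0.747), lay within the counting error. The mean number was 2.11 ± 1.44 (SD over 288 peaks) against 2.49 ± 2.39 in intronic peaks. Coding-exon peaks were also narrower than intronic peaks, whose median width was 378 bp, and matches per kb of peak were closer, 5.53 against 5.98. AGATAA was the most frequent string with 284 of 608 matches, followed by TGATAA with 186, AGATAG with 80 and TGATAG with 58.

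Of the 608 matches, 371 lay wholly on coding bases, 227 wholly outside them and 10 across a boundary. A coding match was present in 218 members, or 75.7% (95% exact binomial interval 70.3% to 80.5%), and 136 of these had no match elsewhere. Only non-coding or boundary matches were found in 49 members, and no match in 21. Where a member had a match, the match nearest to its midpoint was coding in 202 of 267. The definition largely fixes these shares, since it places coding bases at the midpoint, where matches gather, and 52.0% of all bases of the peaks were coding. In peaks with a match, the match nearest to the midpoint lay at a median of 28 bp from it, in coding-exon and in intronic peaks alike. A match lay within 50 bp of the midpoint in 68.4% of coding-exon peaks and 67.8% of intronic peaks, a difference of 0.561 points (95% Newcombe interval -5.07 to 5.71).

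Coding sequence as a whole is poorer in GATA strings than introns, and the peaks sat on the exceptions. Eligible coding sequence of the genome held 1.44 matches per kb and had a GC content of 51.1%, while introns held 2.38 per kb at 41.0%. Coding bases within 100 bp of the midpoint of the coding-exon peaks held 7.68 matches per kb, 5.33 times the level of all eligible coding sequence. Non-coding bases at the same distance in intronic peaks held 8.20 per kb, 3.44 times the level of introns. Coding bases farther than 100 bp from the midpoint fell to 3.70 per kb. The median GC content of the coding-exon peaks was 44.6%, between that of intronic peaks (43.2%) and of coding sequence. The members without any match were the narrower and richer in GC. Their median width was 250 bp against 364 bp for members with a match, and their median GC content 50.5% against 44.1%. They included CPOX, the coproporphyrinogen oxidase of heme synthesis, E2F1, a cell cycle transcription factor, and NLRC5, a regulator of MHC class I genes. Among these 21, the E-box CAGCTG was present in 4 and an AP-1 string in 3, against 24.1% and 13.04% of all asynchronous peaks. Each of the other strings compared below was present in 1. With so few peaks no difference was tested.

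**Figure D2:**
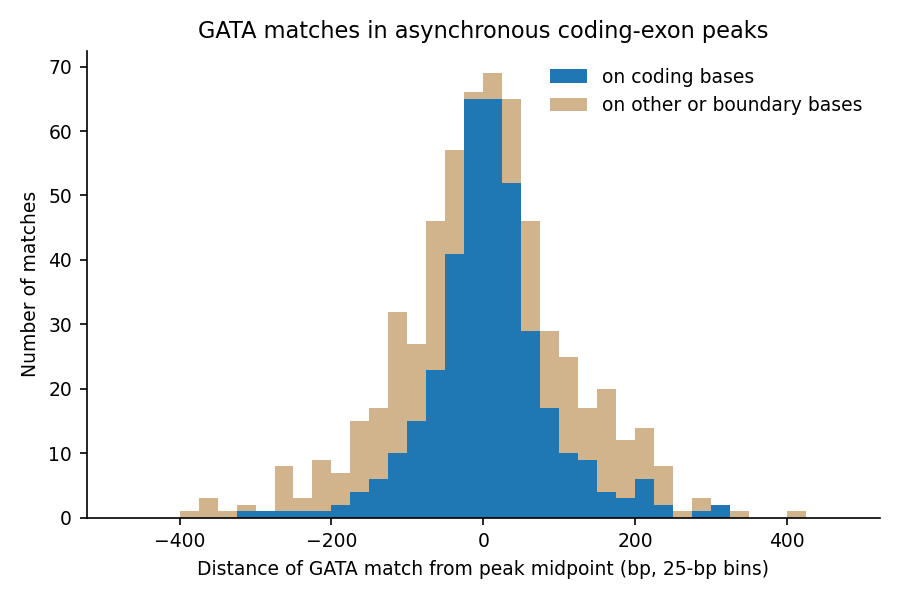
Number of GATA matches (y axis) by distance from the midpoint of the asynchronous coding-exon peaks (x axis, bp, bins of 25 bp), stacked by place. Matches on coding bases (blue, 371) form the centre, and matches on other or boundary bases (tan, 227 and 10) the flanks.

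The genetic code leaves fewer reading frames to a GATA string than to most others. On the sense strand all 4 strings end in TAA or TAG, which are stop codons, so a match whose first base is the first base of a codon would end the protein. No such match was present among the 371 coding matches or among 40522 matches in the eligible coding sequence of canonical transcripts. The frame in which GAT, a codon for aspartate, is read whole has the first base of the match at codon position 3. This frame held 151 coding matches of the peaks, or 40.7% (95% exact binomial interval 35.7% to 45.9%), against 34.4% in all eligible coding sequence. The remaining sense frame held 58, or 15.6% (12.1% to 19.7%), against 19.1%. Antisense matches, in which the gene's strand reads TATC, were spread over the 3 positions with 47, 57 and 58, and made up 43.7% (38.6% to 48.9%) against 46.5%. The excess in the aspartate frame was smaller when peaks with several matches counted less. The 371 matches lay in 218 peaks, and the interval counts each match as independent. With the match nearest to the midpoint alone, 1 per peak, the share was 35.3% (29.0% to 42.1%). That interval contains both 40.7% and 34.4%. Without CCDC8 and KMT2C, the members with most coding matches, it was 38.3%.

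**Figure D3:**
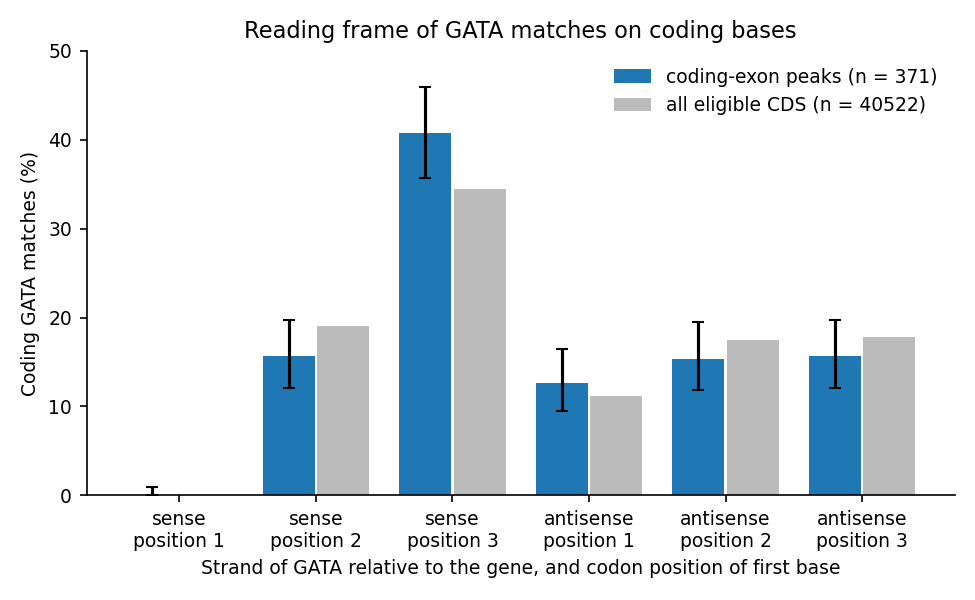
Share of coding GATA matches (y axis, %) by strand relative to the gene and codon position of the first base of the match (x axis), for coding-exon peaks (blue, 371 matches, bars with 95% exact binomial intervals) and for all eligible coding sequence (grey, 40522 matches). Sense position 1 is empty in both, and sense position 3 is the tallest, at 40.7% and 34.4%.

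The members with most coding matches held 8 each. CCDC8, a gene with 1 exon whose product takes part in the 3M complex with CUL7, had a peak of 428 bp at 60.7% GC, and KMT2C, a histone H3 lysine methyltransferase, a peak of 844 bp inside exon 38 of 59. Neither was bookmarked. The central 300 bases of each are shown because their matches are arranged along the reading frame. Capitals mark GATA matches, read here as TTATCT or TTATCA because both genes lie on the minus strand. The stretch of CCDC8 holds 7 of its 8 matches and that of KMT2C 4 of its 8.
CCDC8, chr19:46411495-46411794, plus strand: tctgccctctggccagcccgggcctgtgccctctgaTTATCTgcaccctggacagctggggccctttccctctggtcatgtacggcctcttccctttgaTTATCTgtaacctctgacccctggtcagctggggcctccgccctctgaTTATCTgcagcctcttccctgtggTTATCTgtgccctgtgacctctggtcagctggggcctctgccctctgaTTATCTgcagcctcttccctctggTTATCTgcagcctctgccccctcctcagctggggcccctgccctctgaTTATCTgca
KMT2C, chr7:152177058-152177357, plus strand: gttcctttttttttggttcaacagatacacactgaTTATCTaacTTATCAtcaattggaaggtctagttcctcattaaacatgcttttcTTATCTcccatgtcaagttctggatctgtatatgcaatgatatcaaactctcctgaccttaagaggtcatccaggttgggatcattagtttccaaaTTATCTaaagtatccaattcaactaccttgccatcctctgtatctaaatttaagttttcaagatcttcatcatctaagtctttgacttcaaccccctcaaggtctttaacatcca

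In CCDC8 the distances between the starts of neighbouring matches were 63, 48, 24, 48, 24, 48 and 24 bp, all multiples of 3, and all 8 matches were sense at codon position 3. In KMT2C 7 of the 8 matches were in the same frame. The distances there were 117, 66, 9, 45, 96, 178 and 11 bp, and the 5 multiples of 3 again follow from the shared frame. The next members by coding matches were PGBD1, DDIAS, SYBU and CP with 5 each. The peaks of PGBD1, DDIAS and SYBU lay in the last coding exon and were wholly coding.

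Of the 288 asynchronous members, 8 were bookmarked, or 2.78% (95% exact binomial interval 1.21% to 5.40%), against 5.04% of all asynchronous peaks. Intronic peaks were bookmarked in 4.79% (4.45% to 5.14%) and untranslated-exon peaks in 4.60% (2.94% to 6.82%). The difference from intronic peaks was -2.01 percentage points (95% Newcombe interval -3.42 to 0.620) and from untranslated exons -1.82 (-4.42 to 1.19), so neither exceeded the counting error. The gap was smaller at matched width. With intronic peaks reweighted to the widths of the coding-exon peaks, their bookmarked share was 3.59%, and the difference -0.811 points. Among peaks at or above the median width of the asynchronous list (378 bp), 6 of 125 coding-exon peaks were bookmarked, or 4.80% (1.78% to 10.2%), against 690 of 7394 intronic peaks, or 9.33% (8.68% to 10.0%). That difference was -4.53 points (-7.20 to 0.784). Among narrower peaks the order was the opposite. Of these, 2 of 163 coding-exon peaks were bookmarked, or 1.23% (0.149% to 4.36%), against 17 of 7380 intronic peaks, or 0.230% (0.134% to 0.369%). The difference was 0.997 points (0.0961 to 4.13) and rests on 2 peaks, those of AGBL2 and PPARG. The part of the asynchronous cells left in the mitotic sort was not tested.

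**Figure D4:**
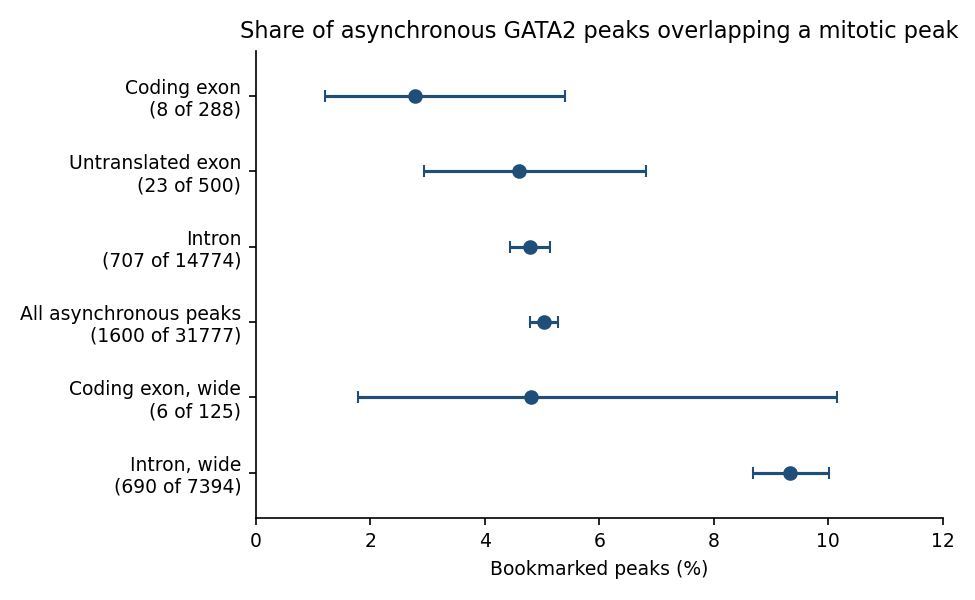
Share of asynchronous peaks that share at least 1 base with a mitotic peak (x axis, %) for peaks in coding exons, untranslated exons and introns more than 1 kb from a TSS, and for all asynchronous peaks, with 95% exact binomial intervals; wide means at or above the median width of 378 bp. The interval of the coding-exon peaks, 1.21% to 5.40%, contains the 4.79% of intronic peaks.

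The 8 bookmarked members lay in EPB41, ZSWIM5, AGBL2, PDRG1, PPARG, ANKRD28, CRYBG1 and GRIA3. All lay in internal coding segments, and their median width was 548.5 bp against 352 bp for the asynchronous-only members. A coding match was found in 4 of them (EPB41, AGBL2, ANKRD28 and CRYBG1). In ZSWIM5, PDRG1 and GRIA3 the matches were intronic although the midpoint was coding. PDRG1 encodes a DNA damage regulated protein, and its peak at chr20:31949949-31950730 held 76 bp of coding sequence and 3 intronic matches, with the mitotic peak of 344 bp inside it. GRIA3 encodes a subunit of AMPA-type glutamate receptors, and its peak at chrX:123464679-123465075 had 1 match, in the intron before exon 13 of 16. The mitotic peak lay wholly inside the asynchronous peak at all 8 sites, and covered from 24.3% of it in ZSWIM5 to 86.6% in AGBL2.

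PPARG, the nuclear receptor known for adipocyte differentiation, was the bookmarked member without a GATA match. Its asynchronous peak at chr3:12405787-12406109 and its mitotic peak lay over exon 6 of 8, and the mitotic peak was 97.0% coding. Its sequence is shown as the exception among the bookmarked sites. It holds the shorter letters GATA only followed by T, an AP-1 string (TGACTCA or TGAGTCA) and the E-box CAGCTG.
PPARG, chr3:12405877-12406045, plus strand: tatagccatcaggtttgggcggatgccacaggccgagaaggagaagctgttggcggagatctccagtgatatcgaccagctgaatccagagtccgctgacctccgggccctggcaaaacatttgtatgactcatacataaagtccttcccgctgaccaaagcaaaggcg

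The bookmarked part of a peak was its centre, and 4 of the 8 sites had coding matches there. Across the 8 sites the asynchronous peaks held 20 matches, of which 13 lay inside the mitotic peak. All 8 coding matches did, and 5 of the 12 non-coding ones. In EPB41 the asynchronous peak of 624 bp held 5 matches, and the mitotic peak of 200 bp kept the coding AGATAA alone. Since the midpoint of each peak is coding by the rule, coding bases lie nearer to the centre than the introns do, and the 2 features cannot be told apart here.

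**Figure D5:**
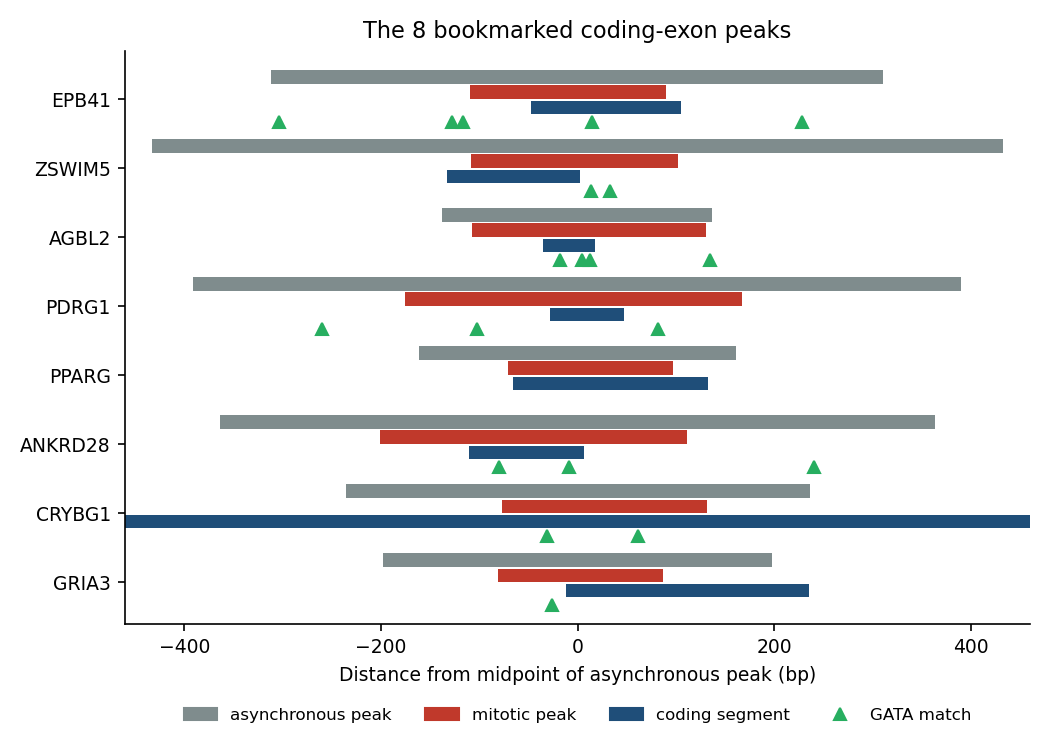
The 8 bookmarked coding-exon peaks, each drawn by distance from the midpoint of the asynchronous peak (x axis, bp), with the asynchronous peak (grey), the mitotic peak (red), the coding segment under the midpoint (blue, cut at the plot edge for CRYBG1) and GATA matches (green triangles). Each mitotic peak lies inside its asynchronous peak, and PPARG has no match.

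The mitotic list held 16 coding-exon peaks with a median width of 225 bp. Of these, 13 overlapped the asynchronous list, or 81.2% (95% exact binomial interval 54.4% to 96.0%), against 97.5% of all mitotic peaks. Besides the 8 sites above they were a further ZSWIM5 site, IER5, ABCB11, KCTD7 and USP20, where the midpoint of the asynchronous peak fell in an intron or an untranslated part of the last or only exon. ABCB11 had the most matches, 5 in its mitotic peak of 523 bp. IER5, an immediate early response gene with a single coding segment, had none in a mitotic peak of 371 bp at 67.4% GC. Of the 16, 11 held a GATA match, or 68.8% (41.3% to 89.0%), against 95.6% of all mitotic peaks, and the 14 coding matches in them fell in sense frames 6 times and antisense frames 8 times.

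The other 3 mitotic coding-exon peaks shared no base with the asynchronous list, and none held a GATA match. They were 3 of the 42 mitotic-unique peaks, or 7.14% (95% exact binomial interval 1.50% to 19.5%), whereas 13 of the 1606 shared mitotic peaks were coding, or 0.809% (0.432% to 1.38%). The difference was 6.33 percentage points (95% Newcombe interval 1.61 to 18.2). That interval counts each peak as independent, although the pair in IGHG1 described below shares 1 gene. The first of the 3 peaks lay in ANGPT1, the angiopoietin 1 ligand of the TIE2 receptor, over exon 4 of 9, with a width of 205 bp. ANGPT1 also held an asynchronous coding-exon peak of 206 bp over exon 8. The remaining pair lay in IGHG1, the constant region of the immunoglobulin gamma 1 heavy chain, on the minus strand of chromosome 14. They were 113 and 84 bp wide, lay in coding segments 4 and 1 of 6, and held coding bases only. The latter lay 53 bp from the start of IGHG1 itself, which is annotated as an immunoglobulin gene and so did not count as a protein-coding TSS. No asynchronous peak lay in IGHG1. The gene has close copies in the same locus, so the placing of reads there is uncertain, and both peaks count as 1 gene. The IGHG1 sequences are shown because they are wholly coding and lack the motif.
IGHG1, chr14:105741680-105741792, plus strand: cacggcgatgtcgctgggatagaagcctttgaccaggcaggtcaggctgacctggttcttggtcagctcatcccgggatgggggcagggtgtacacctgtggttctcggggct
IGHG1, chr14:105742976-105743059, plus strand: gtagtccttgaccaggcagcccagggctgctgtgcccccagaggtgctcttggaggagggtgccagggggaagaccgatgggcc

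Of the other short strings, the GATA:E-box composite was more frequent than in intronic peaks, and the rest did not differ beyond counting error. The composite, CTG and GATAA separated by 8 bases, is recognised by complexes of GATA factors with TAL1. It was present in 35 members, or 12.2% (95% exact binomial interval 8.61% to 16.5%), against 8.52% of intronic peaks and 8.55% of all asynchronous peaks. The difference from intronic peaks was 3.63 points (95% Newcombe interval 0.315 to 7.93). Of untranslated-exon peaks 10.6% held it, a difference of 1.55 points (-2.90 to 6.46) that lay within the counting error. Of 5 such strings compared with intronic peaks, without adjustment for their number, the composite was the only one whose interval did not contain 0. For the E-box CAGCTG the difference was 3.79 points (-1.07 to 9.24), for the AP-1 string -0.550 (-3.93 to 3.80), for the RUNX core AACCACA -2.61 (-5.90 to 1.66) and for the ETS core AGGAAGT -2.54 (-5.92 to 1.82). These strings were present in 24.1%, 13.04%, 13.6% and 14.9% of all asynchronous peaks, and the composite overlaps the GATA strings by its GATAA end. Of the 8 bookmarked members, PDRG1 held the composite.

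The asynchronous-only members of greatest width ran from 767 to 907 bp. THG1L, a transfer RNA guanylyltransferase, had the widest, at chr5:157732488-157733394, with 7 matches of which none was coding. C19orf38 followed with 880 bp, of which 4.32% were coding. NAPEPLD, a phospholipase of N-acylethanolamine synthesis, had 854 bp with 4 coding matches in exon 3 of 5. OR52A1, an olfactory receptor gene, had 848 bp with 4 coding matches. The peak lies 73.3 kb from HBB, the adult beta-globin gene, on chromosome 11. The list continued with KMT2C, TTC23 and GPX6 (a glutathione peroxidase), SLC35A3 (a Golgi nucleotide sugar transporter), ATP6V0E1 (a subunit of the vacuolar proton pump) and WIPI1 (an autophagy protein). The narrowest were in E2F1 (133 bp, no match), SMAD9 (152 bp, 1 coding match), MAGI2 (156 bp, 1), NPIPB11 (164 bp, 3) and NLRC5 (172 bp, no match). NPIPB11 belongs to a family of near-identical copies on chromosome 16, so the placing of its reads is uncertain.

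The central 300 bases of the peaks in NAPEPLD and SLC35A3 are shown as wide coding-exon sites that were not bookmarked, with GATA matches in capitals. The stretch of NAPEPLD holds 2 of its 5 matches, and that of SLC35A3 all 3 of its matches. Each of the latter is coding in at least 1 annotated transcript. The first of them, at 99993545, lies before the coding segment of the transcript used for details, which starts at 99993555.
NAPEPLD, chr7:103119789-103120088, plus strand: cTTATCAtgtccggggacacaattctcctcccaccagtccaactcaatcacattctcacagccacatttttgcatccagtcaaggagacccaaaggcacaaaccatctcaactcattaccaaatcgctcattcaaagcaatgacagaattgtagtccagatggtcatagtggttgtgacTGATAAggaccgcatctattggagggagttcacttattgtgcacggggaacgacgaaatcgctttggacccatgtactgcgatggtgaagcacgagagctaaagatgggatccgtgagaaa
SLC35A3, chr1:99993425-99993724, plus strand: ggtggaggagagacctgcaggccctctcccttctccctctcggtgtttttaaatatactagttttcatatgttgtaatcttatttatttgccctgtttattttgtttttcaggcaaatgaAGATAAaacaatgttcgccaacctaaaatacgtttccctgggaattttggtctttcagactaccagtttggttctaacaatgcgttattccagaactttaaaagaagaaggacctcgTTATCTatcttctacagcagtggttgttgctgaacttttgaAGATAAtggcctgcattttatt

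Of 46 haematopoietic transcription factor genes with eligible coding sequence, 0 held a coding-exon peak, as did 0 of 29 megakaryocyte and platelet genes and 2 of 44 erythroid and red cell genes, EPB41 and CPOX. Over all 18569 genes with eligible coding sequence, 281 did, or 1.51%, and 1 further host was a T cell receptor segment. By family, the hosts included 5 of 558 genes with C2H2 zinc finger names, 6 of 373 solute carriers and 0 of 44 collagens. The zinc finger genes held 3.46% of the eligible coding sequence and 1.78% of the host genes, and the solute carriers 1.83% and 2.14%. CPOX had an asynchronous peak of 289 bp over exon 5 of 7, was not bookmarked and held no match.

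Coding-exon peaks had another GATA2 peak nearby less often than intronic peaks did. Another asynchronous peak lay within 5 kb of 75 members, or 26.0% (95% exact binomial interval 21.1% to 31.5%), and of 35.4% of intronic peaks, a difference of -9.39 points (95% Newcombe interval -14.2 to -3.97). The nearest other asynchronous peak lay a median of 14033 bp from coding-exon peaks. For intronic peaks this was 9075 bp and for untranslated-exon peaks 10438.5 bp. The median distance of coding-exon peaks to the nearest TSS was 12962.5 bp, against 18427 bp for intronic and 11291.5 bp for untranslated-exon peaks. At the 1 kb limit of the definition, the closest members were CEP95 (1021 bp from a TSS, width 457 bp), PDE4C (1032 bp, 248 bp) and NUP62CL (1038 bp, 217 bp). Just inside 1 kb lay peaks in DBP (974 bp, 324 bp), PALB2 (972 bp, 312 bp) and KIAA1549L (941 bp, 190 bp), none of which, like those members, was bookmarked. In all, 113 asynchronous peaks lay in coding sequence within 1 kb of a TSS, of which 6 were bookmarked and 73.5% held a GATA match.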

How the data were processed

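ChIP-seq against GATA2 was done on K562 cells, asynchronous or mitotic. Input libraries were not analysed here. The deposited files are BED lists of peak positions with 3 columns (chromosome, start, end), without scores. According to the study's methods and the submitters' processing notes, the authors aligned reads to hg38 with BWA 0.7.12, kept unique alignments, called peaks with MACS2 2.1.0 and Genrich 0.6.1, and removed blacklisted regions. How both callers were combined is not given in the sources used here. Deeper libraries yield more peaks, so list sizes depend on depth.

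Peaks were placed by midpoint on GENCODE release 44 (CDS of any transcript; details from the Ensembl canonical transcript where it held the midpoint), with coordinates counted from 1. Intronic and untranslated-exon peaks served for comparison. Shares carry exact binomial and differences Newcombe 95% intervals. Reweighting used 20 bins of width, or 10 of width by 5 of GC content. No test between conditions was possible with 1 library each. Genes named were all bookmarked or mitotic members, and the 10 widest and 5 narrowest asynchronous-only members. So were the 5 with most coding matches (plus CP, tied for the last place), hosts from the gene lists, and genes with several members. The planned rule for the last asked for 3 or more; genes with 2, the members at the 1 kb limit, the other genes given as examples and the sequences of PPARG, CCDC8 and IGHG1 were chosen after their values were seen. The members and lists were chosen with earlier results of these data known. The overlap, motif and codon steps were tested on simulated data, and all 200 planted overlaps and 300 planted matches with their codon positions were recovered. Scripts ran in Python 3.11.15 with pysam 0.24.0 for sequence, scipy 1.17.1 for intervals, pandas 2.3.3 and numpy 2.4.6 for tables, and matplotlib 3.10.9 for figures.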

Additional observations from a re-analysis of the deposited data

How the results depend on the processing

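Of 60 alternative values for 10 results, 41 stayed within the interval of the main value (or within 1.5 times, for counts) and 19 moved outside it. The bookmarked share of coding-exon minus intronic peaks turned its direction with width. It was -4.53 points with both groups at or above the median width and 0.997 points with both under it, where 2 coding-exon peaks decide it. The other alternatives for differences between groups kept the direction. The number of members depended on the definition. With at least 50% of bases coding there were 161 asynchronous and 9 mitotic members, at or above the median width 125 and 6, and with no minimum TSS distance 25 mitotic. Reciprocal overlap of at least 50% lowered the bookmarked share to 0.694% and the shared mitotic members to 31.25%, as mitotic peaks are narrower. The share with a GATA match was 87.3% with no TSS minimum, 96.8% at or above the median width, 85.4% in the central 200 bp, 88.9% for GATAA and 97.9% for GATA. The share with a coding match was 68.8% with no TSS minimum, 86.3% with at least 50% of bases coding, 69.8% for GATAA and 86.1% for GATA. The share of coding matches in the aspartate frame was 35.3% with 1 match per peak. Leaving out CCDC8 and KMT2C, leaving out IGHG1 (92.9% of mitotic members then shared) and the split by width were chosen after seeing the data. No paired analysis was possible because each condition has 1 library. With 8 bookmarked members, small differences in share are not detectable.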
